A study of Mus musculus with 24 samples.

Results

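The LPS response of AhR-KO macrophages was read from 12 of the 24 ATAC-seq samples of the series, the 6 labelled AhR-KO and LPS and the 6 labelled AhR-KO and unstimulated, which were chosen by their labels alone. In ATAC-seq a transposase cuts DNA where chromatin is open, and the sequenced fragments are counted. All groups were BMDMs, macrophages grown from mouse bone marrow in medium with GM-CSF (10 ng/ml), TGF-β (2 ng/ml) and 10% serum, a mixture under which they take on features of alveolar macrophages. The AhR-KO groups lacked the aryl hydrocarbon receptor (AhR) in every cell through the germline allele Ahr tm1Bra, the WT groups carried the intact gene, and the study used mice of both sexes aged 7 to 14 weeks. The LPS groups received lipopolysaccharide at 97 EU/ml on day 6 for 24 h, the unstimulated groups are labelled as having received none, and the calcium ionophore A23187 at 5 µM is described for the last 10 min. The treatment text, LPS included, is attached to every sample, so whether the unstimulated cultures also received the ionophore is not given. The study's methods describe 6 animals per group in a single experiment, and p-values therefore measure the spread between these samples. The comparison asks which promoters and distal sites open or close with LPS in macrophages that have no AhR.

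LPS is sensed by TLR4 with CD14 and MD-2, and signals through the adaptors MyD88 and TRIF to NF-kB, to the AP-1 factors and to IRF3. IRF3 and NF-kB induce interferon beta, which acts back on the cell through STAT factors and IRF9 on interferon-stimulated genes. Macrophage enhancers are held open by the lineage factors PU.1 and C/EBP, and stimulation adds sites where AP-1 and NF-kB bind beside them. AhR is a ligand-activated factor that pairs with ARNT on DNA, and in macrophages it is known to restrain parts of the response to LPS. Alveolar macrophages depend on GM-CSF and TGF-β, which maintain PPARγ and a programme of lipid handling, lectin and scavenger genes, and they make leukotrienes with 5-lipoxygenase and prostaglandins with the cyclooxygenases.

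The sequences below are the central 300 bases of peaks off the TSS that the results turn on, read from GRCm38.p6 (the assembly of mm10), 5′ to 3′ on the + strand, with motif matches on either strand in capitals. Letters were searched for AP-1 (TGANTCA), ISRE, the interferon-stimulated response element (GAAA, any 2 bases, GAAA), PU.1 (GAGGAAGT), the AhR-ARNT core (TTGCGTG) and the kB element of NF-kB, and a match is a description of the letters, not a bound site. Of these, 4 opened. The site nearest to Runx2 had the largest rise of the distal peaks named here. That nearest to Jarid2 holds the AhR-ARNT core at base 46 and AP-1 at base 294. Those nearest to Irak3 and Tnfaip3 lie by inhibitors of TLR4 signalling.
Runx2-nearest, kB then AP-1 at 2 places, chr17:44475983-44476282, + strand: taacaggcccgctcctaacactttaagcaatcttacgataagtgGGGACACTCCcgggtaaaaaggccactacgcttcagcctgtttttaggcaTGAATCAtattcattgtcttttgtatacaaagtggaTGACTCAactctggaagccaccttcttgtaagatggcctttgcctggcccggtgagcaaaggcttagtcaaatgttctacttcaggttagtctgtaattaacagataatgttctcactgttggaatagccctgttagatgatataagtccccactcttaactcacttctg
Jarid2-nearest, AhR-ARNT core then AP-1, chr13:44321195-44321494, + strand: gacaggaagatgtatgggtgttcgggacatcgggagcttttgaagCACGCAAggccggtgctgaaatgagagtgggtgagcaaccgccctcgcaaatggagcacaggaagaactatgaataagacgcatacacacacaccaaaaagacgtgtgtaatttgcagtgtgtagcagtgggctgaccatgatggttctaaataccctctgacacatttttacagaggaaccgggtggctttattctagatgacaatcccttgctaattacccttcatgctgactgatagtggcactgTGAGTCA
Irak3-nearest, AP-1 at 2 places, chr10:120204661-120204960, + strand: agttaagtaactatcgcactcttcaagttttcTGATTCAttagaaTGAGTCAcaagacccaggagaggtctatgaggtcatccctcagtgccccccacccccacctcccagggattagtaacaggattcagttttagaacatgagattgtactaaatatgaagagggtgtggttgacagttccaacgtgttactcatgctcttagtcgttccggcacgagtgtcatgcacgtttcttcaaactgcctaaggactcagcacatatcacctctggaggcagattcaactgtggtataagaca
Tnfaip3-nearest, AP-1, chr10:19026693-19026992, + strand: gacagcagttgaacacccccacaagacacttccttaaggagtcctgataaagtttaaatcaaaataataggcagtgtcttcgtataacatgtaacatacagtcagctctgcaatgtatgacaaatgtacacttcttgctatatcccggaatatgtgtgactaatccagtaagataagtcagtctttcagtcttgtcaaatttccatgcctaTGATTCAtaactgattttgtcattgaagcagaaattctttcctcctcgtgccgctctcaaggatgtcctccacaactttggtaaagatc

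These 2 distal sites closed. The site nearest to Klf4, a macrophage lineage factor, holds the PU.1 letters, and the site nearest to Flrt2, the distal peak with the largest fall of those named here, holds none of the 5 motifs. All 300 of the bases shown for the latter are marked as repeats in the assembly, and 4 other sites named below share runs of it.
Klf4-nearest, PU.1, chr4:55817262-55817561, + strand: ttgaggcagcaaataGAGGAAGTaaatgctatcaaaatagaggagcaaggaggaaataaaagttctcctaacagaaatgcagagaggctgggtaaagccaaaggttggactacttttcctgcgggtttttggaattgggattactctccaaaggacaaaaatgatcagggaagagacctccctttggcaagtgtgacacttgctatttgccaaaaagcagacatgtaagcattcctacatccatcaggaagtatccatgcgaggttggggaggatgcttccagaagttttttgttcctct
Flrt2-nearest, repeat, no match, chr12:94210695-94210994, + strand: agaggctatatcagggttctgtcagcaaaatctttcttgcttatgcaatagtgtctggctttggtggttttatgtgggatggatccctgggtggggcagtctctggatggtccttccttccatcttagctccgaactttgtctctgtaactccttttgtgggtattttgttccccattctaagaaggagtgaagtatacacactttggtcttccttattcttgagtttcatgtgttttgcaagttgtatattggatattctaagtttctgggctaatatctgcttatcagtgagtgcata

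The 250 bases before the RefSeq start are shown for 2 promoters whose TSS peaks opened, Ifit3 from the interferon-stimulated genes and Serpinb2 from the protease inhibitors. Over 32851 such promoters of RefSeq (GRCm38.p6), 2.98% hold the ISRE letters and 6.75% the AP-1 letters.
Ifit3 promoter, ISRE at 2 places then AP-1, chr19:34583279-34583528, + strand: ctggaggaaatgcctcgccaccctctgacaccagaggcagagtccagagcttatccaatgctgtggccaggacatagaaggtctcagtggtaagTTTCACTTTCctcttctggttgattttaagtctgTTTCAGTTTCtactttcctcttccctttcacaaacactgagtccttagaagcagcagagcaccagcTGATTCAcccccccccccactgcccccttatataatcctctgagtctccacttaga
Serpinb2 promoter, AP-1, chr1:107511173-107511422, + strand: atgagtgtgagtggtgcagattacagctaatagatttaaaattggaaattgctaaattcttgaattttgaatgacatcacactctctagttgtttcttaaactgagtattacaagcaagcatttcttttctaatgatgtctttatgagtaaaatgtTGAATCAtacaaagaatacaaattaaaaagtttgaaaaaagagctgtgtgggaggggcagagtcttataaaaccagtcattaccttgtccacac

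The total count in consensus peaks, in M (mega) counts, was 18.9 to 25.7 M in the unstimulated and 22.4 to 28.5 M in the LPS samples (exact permutation test of the means, two-sided, p = 0.0584). Peaks over a transcription start site (TSS) took 32.4 to 34.7% of the counts without LPS and 29.7 to 32.1% with it, ranges that did not overlap (difference of means -2.41 percentage points, exact permutation p = 0.0022, the smallest that 6 against 6 samples can give). The mean GC content of the counted peaks moved with them, from 52.3 to 53.0% down to 51.4 to 52.1%, and the number of broad peaks called per sample rose from 90059 to 99381 up to 102071 to 114556 (exact permutation p = 0.0022 for both, the smallest possible). The part of these sample properties in the results below was not tested. The macrophage label was checked against defining genes. Of 10 macrophage markers, 9 had a tested TSS peak (Spi1 had none), with a summed level of 237 to 299 CPM without LPS and 214 to 274 CPM with it. Of these, Csf1r was a higher DAR and Cd68, Itgam, Lyz2 and Mertk were lower. Few markers of other cell types had a tested TSS peak, namely 2 of 6 for B cells, 1 of 7 for T or NK cells, 2 of 8 for mast cells or eosinophils, 2 of 5 for erythroid and 3 of 7 for stromal cells. The defining Cd3e, Cpa3, Gata1, Col1a1, Ly6g, Mpo and Elane had none. Since the macrophage gene Spi1 had none either, a missing TSS peak does not show that a cell type is absent. Other markers of these cell types were as open as macrophage ones. Without LPS the mean was 24.0 CPM at S100a8 (neutrophil), 21.9 at Klrb1c (T or NK cell) and 16.5 at Pdgfra (stromal cell). It was 27.4 CPM at Lyz2 and 22.5 CPM at Adgre1, both macrophage markers. Of the measured markers in the 5 lists from B cells to stromal cells, 1 was a DAR, the eosinophil receptor gene Ccr3. It rose from a mean of 0.304 to 1.04 CPM (log2 fold change 1.75, adjusted p 2.0e-06). The summed levels in those 5 lists were 5.57 to 7.25, 18.7 to 24.01, 5.31 to 6.49, 6.06 to 7.25 and 20.97 to 25.05 CPM without LPS and 6.76 to 8.88, 18.1 to 21.2, 5.71 to 8.63, 5.42 to 7.76 and 18.97 to 20.97 CPM with it. Dendritic cell markers (6 of 10) summed to 38.6 to 47.4 CPM without LPS and 31.3 to 39.7 CPM with it, where Ccr7 was higher (2.13) and Zbtb46 and Siglech were lower DARs. Summed levels of 7 of 10 neutrophil markers were 44.1 to 48.1 CPM without LPS and 52.6 to 63.1 CPM with it, where Camp, an antimicrobial peptide gene, was the higher DAR (log2 fold change 1.30) and S100a9 and Ngp were lower (-1.07 and -0.96). In these bulk samples, fewer cells with an open site and less opening per cell cannot be told apart.

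At the thresholds given next, nearly as many sites changed with LPS as did not. With no minimum fold change, 115307 peaks passed on adjusted p alone. A DAR (differentially accessible region) is a peak with a fold change of at least 1.5 and an edgeR adjusted p of at most 0.05, and of 174193 tested peaks 47573 (27.3%) were higher and 37517 (21.5%) lower after LPS in AhR-KO. The 6 LPS samples all lay on one side of the 6 unstimulated samples at 67738 of these DARs (38.9% of tested peaks). Opening was larger than closing. Among DARs of at least 4-fold, 12931 were higher and 2000 lower, and among those of at least 8-fold 3778 and 107. Sites that opened started low. Their median level went from 0.781 to 2.45 CPM (counts per M counts of the TMM-scaled sample total), whereas sites that closed went from 2.88 to 1.29 CPM. In the peak lists called on each sample, 7878 of the higher DARs (16.6%) overlapped a peak in all 6 LPS samples and in 0 of 6 unstimulated samples, and 2274 of the lower DARs (6.06%) did the reverse. Among peaks that were not DARs these shares were 0.141% and 0.0864%. Sites that closed were called in every sample more often than sites that opened, at 31.9% against 18.8% overlapping a peak in all 12 samples. Both shares lay below the 43.9% of peaks that were not DARs.

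Distal sites responded far more often than promoters. Of 13458 peaks over the TSS of a protein-coding gene, 628 (4.67%) were higher and 1506 (11.2%) lower DARs. Of 143273 distal peaks, more than 5 kb from the nearest such TSS, 42669 (29.8%) were higher and 31678 (22.1%) lower. The share of higher DARs grew with distance, from 18.3% within 1 kb of a TSS to 35.2% beyond 500 kb, while the share of lower DARs stayed between 21.9 and 25.3%. The median log2 fold change of TSS peaks was -0.11, against 0.09 for distal peaks, and higher DARs made up 29.4% of the TSS calls. That split depended on the scaling, since factors computed over TSS peaks alone, chosen after the shift in TSS share was seen, gave 780 higher and 1126 lower TSS DARs (40.9% higher), a TSS median of -0.02 and a median over all peaks of 0.13 in place of 0.05. Among TSS DARs of at least 4-fold the order was the other way round, 85 higher and 24 lower. Chromosome X was the only chromosome with more lower (26.6%) than higher DARs (24.2%), and chromosome 16 held the largest share of higher ones (32.02%, with 18.1% lower).

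**Figure D1:**
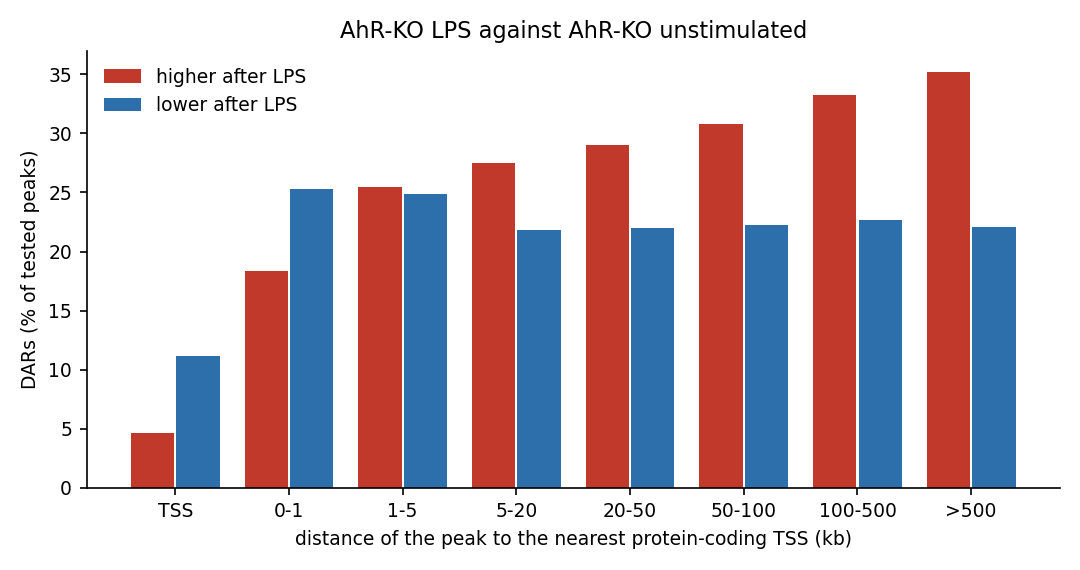
Share of tested peaks (%) that were higher (red) or lower (blue) DARs after LPS in AhR-KO, for peaks over a TSS and for other peaks by distance to the nearest protein-coding TSS in kb. Higher DARs rise from 4.67% at the TSS to 35.2% beyond 500 kb, whereas lower DARs vary little beyond 1 kb.

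Sites that opened and sites that closed differed in their letters. AP-1 letters, the target of FOS and JUN dimers, were present in the central 300 bases of 35.05% of higher DARs, 7.60% of lower DARs and 13.5% of the other peaks (18.1% of all). The kB letters of NF-kB were in 8.18%, 2.30% and 4.21% (4.88% of all). PU.1 letters had the opposite order, with 4.29% of higher, 12.8% of lower and 6.96% of other peaks (7.49% of all). CTCF letters, from a factor that anchors chromatin loops, were rarer among both kinds of DAR (0.406% and 0.179%) than among other peaks (1.76%). ISRE letters were in 5.47% of higher and 3.83% of lower DARs (4.59% of all), and over the TSS in 6.85% and 2.46% (2.81% of all TSS peaks). The AhR-ARNT core was in 0.664% of higher, 0.674% of lower and 0.893% of other peaks (0.783% of all). All of these shares describe the regions and no test was run on them. GC content moved with the classes too, with a median of 45% in higher DARs, 47.0% in lower DARs and 47.3% in the other peaks, and its part in the shares was not tested.

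The AP-1 and kB shares followed the size of the change. AP-1 letters went from 45.7% of peaks that rose over 4-fold to 25.7% of those that rose 1.5 to 2-fold and 4.65% of those that fell over 4-fold. PU.1 letters were in 2.44% of peaks that rose over 4-fold and 5.79% of those that rose 1.5 to 2-fold. Among falls their share showed no steady trend with size, at 12.05% (1.5 to 2-fold), 13.6% (2 to 4-fold) and 13.35% (over 4-fold). Read from the letters, 70.4% of the 1509 peaks with both AP-1 and kB letters were higher and 4.44% lower, against 51.9% and 9.27% with AP-1 alone, 40.4% and 11.4% with kB alone, and 20.7% and 24.98% with neither. Peaks with PU.1 but no AP-1 letters were lower in 40.3% and higher in 12.5% of 11114 cases. Where both were present the shares were 17.4% and 33.4% of 1935. Printed examples of these letters are kB and AP-1 in the opened Runx2-nearest site and PU.1 in the closed Klf4-nearest site. The distal rises nearest to Jarid2 and Basp1 hold AP-1 letters, and those nearest to Helt, Mbd3l2 and Zhx2 hold none of these motifs. AP-1 letters also lie in sites that closed, nearest to Alox5, Fosl2, Ahrr, Ptgs2 and Bhlhe41.

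**Figure D2:**
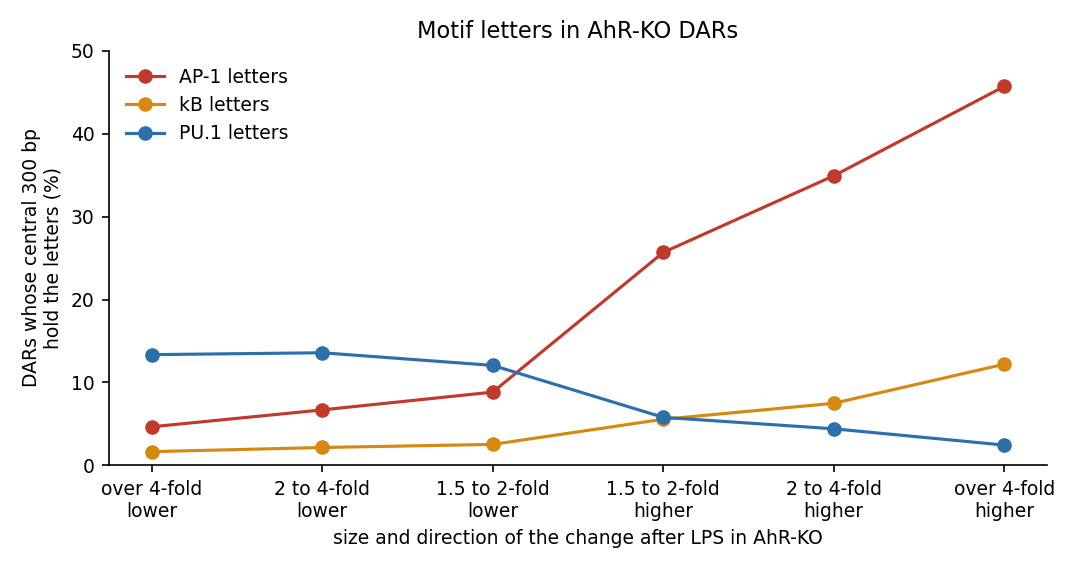
Share of AhR-KO DARs (%) whose central 300 bases hold the AP-1, kB or PU.1 letters, by size and direction of the change after LPS. AP-1 and kB rise towards the largest openings, to 45.7% and 12.2%, and PU.1 is lowest there at 2.44%.

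Of the 6 promoters named for the largest rises, 3 belong to genes of secreted or serpin proteins and 1 to a transporter. Counted once per gene, 532 of 13747 genes with a TSS peak (3.87%) had a higher DAR there and 1386 (10.1%) a lower one, with a median log2 fold change of -0.11. Ccl5, a chemokine that draws T cells and monocytes, had the largest of them, at chr11:83530335-83530833, with 0 to 0.339 CPM (median 0.206) in the 6 unstimulated samples and 11.6 to 15.2 CPM (median 13.3) in the 6 LPS samples (log2 fold change 5.97, SE 0.26, adjusted p 5.8e-19). In 1 unstimulated sample its count was 0. Serpinb2, the plasminogen activator inhibitor of activated macrophages, held 1.18 to 2.11 CPM (median 1.502) in the 6 unstimulated samples and 20.8 to 25.4 CPM (median 23.97) in the 6 LPS samples at chr1:107511067-107511692 (log2 fold change 3.90, SE 0.13, adjusted p 7.8e-25). Hamp encodes hepcidin, the hormone that blocks iron export. Its TSS peak at chr7:30943936-30945005 moved from 1.13 to 2.42 CPM without LPS (median 1.78) to 22.7 to 28.3 CPM with it (median 24.2) (log2 fold change 3.796, SE 0.12, adjusted p 5.8e-25). Rlbp1, a retinaldehyde-binding protein, had a median of 0.568 CPM without LPS (range 0.393 to 0.720) and 8.58 CPM with LPS (range 6.55 to 10.2) at chr7:79386910-79387656 (log2 fold change 3.92, SE 0.15, adjusted p 6.1e-23). Slc1a7, a glutamate transporter, rose at chr4:107967844-107968531, with a median of 0.516 CPM without LPS (range 0.304 to 0.811) and 7.07 CPM with LPS (range 6.51 to 7.77) (log2 fold change 3.77, SE 0.22, adjusted p 2.9e-16). The TSS annotated to the olfactory receptor pseudogene Olfr175-ps1 at chr16:58826687-58827472 had a median of 1.08 CPM without LPS (range 0.821 to 1.40) and 16.5 CPM with LPS (range 10.01 to 24.02) (log2 fold change 3.90, SE 0.26, adjusted p 1.3e-12). The rule for naming these sites asked for groups that do not overlap and for a mean of at least 5 CPM in the higher one.

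The 6 promoters named for the largest falls, by the same rule, include 3 genes of membrane proteins. Ms4a3, a tetraspan protein of granulocyte and monocyte progenitors, held 8.34 to 12.1 CPM (median 9.98) in the 6 unstimulated samples and 0.722 to 1.79 CPM (median 1.36) in the 6 LPS samples at chr19:11640711-11641163 (log2 fold change -2.89, SE 0.13, adjusted p 3.1e-20). Gsc, the homeobox gene goosecoid, moved from 23.4 to 26.5 CPM without LPS (median 24.7) to 3.39 to 3.68 CPM with it (median 3.59) at chr12:104471285-104473452 (log2 fold change -2.80, SE 0.08, adjusted p 9.4e-26). Slco2b1, an organic anion transporter found on resident macrophages, fell at chr7:99706428-99707534, with a median of 11.2 CPM without LPS (range 9.79 to 13.96) and 1.89 CPM with LPS (range 1.62 to 2.62) (log2 fold change -2.55, SE 0.14, adjusted p 2.1e-18). Bank1 is an adaptor of B-cell receptor signalling that myeloid cells also use. Its TSS peak at chr3:136325604-136326400 had a median of 44.8 CPM without LPS (range 42.4 to 47.9) and 8.06 CPM with LPS (range 6.47 to 9.33) (log2 fold change -2.48, SE 0.08, adjusted p 4.3e-25). Pald1, paladin, was the most open of these sites before LPS, with a median of 83.1 CPM without LPS (range 64.7 to 98.2) and 15.4 CPM with LPS (range 14.02 to 16.9) at chr10:61380552-61383970 (log2 fold change -2.41, SE 0.09, adjusted p 7.0e-21). Cd300lg, a member of the CD300 receptor family, had a median of 5.45 CPM without LPS (range 3.04 to 6.18) and 0.862 CPM with LPS (range 0.682 to 1.13) at chr11:102041351-102041823 (log2 fold change -2.58, SE 0.18, adjusted p 3.7e-15), and its lowest unstimulated sample lay above the highest LPS sample.

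**Figure D3:**
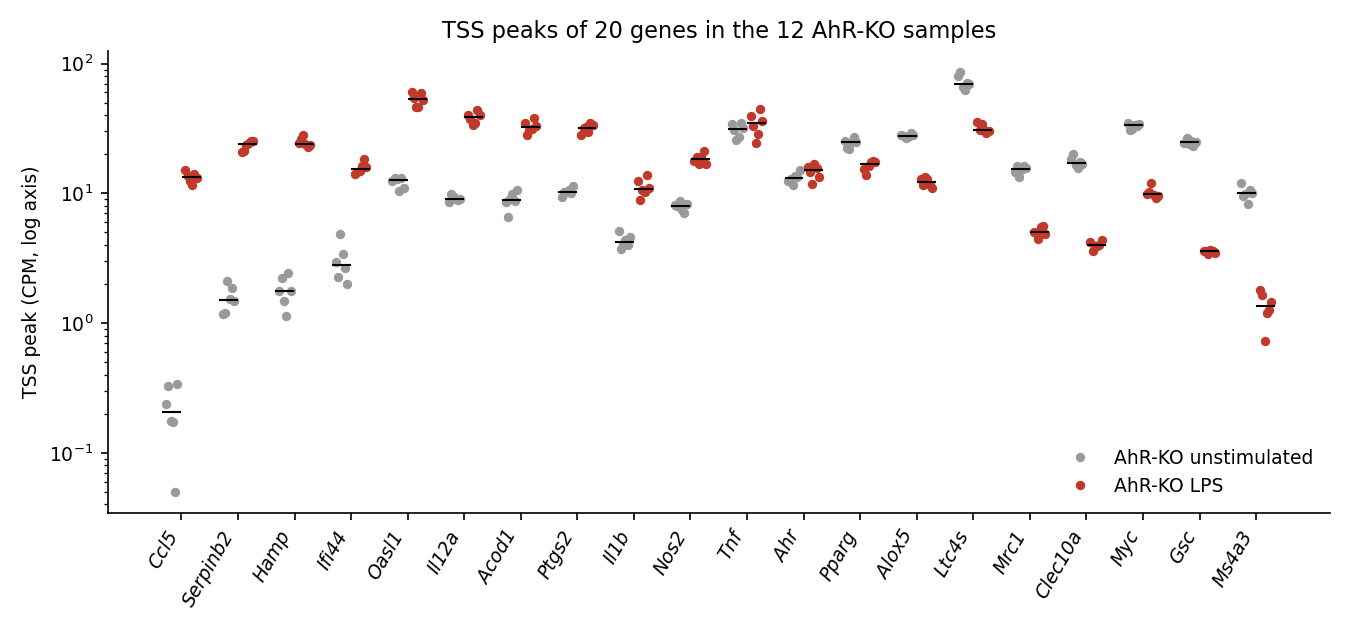
TSS peak level (CPM, log axis) of 20 named genes in the 6 unstimulated (grey) and 6 LPS (red) AhR-KO samples. Each point is 1 sample, the black lines are medians, and the Ccl5 sample with no count is drawn at 0.05 CPM. The groups overlap at Tnf and Ahr and lie apart at the other 18 genes.

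The distal sites that opened most were close to silent without LPS. They are named by the nearest TSS, which need not be the gene they act on. The site 259 kb from Runx2, a factor of bone and of activated myeloid cells, held 0.0424 to 0.162 CPM (median 0.0818) in the 6 unstimulated samples and 9.33 to 14.3 CPM (median 10.9) in the 6 LPS samples at chr17:44475789-44476478 (log2 fold change 6.90, SE 0.25, adjusted p 2.8e-23). The site 70.4 kb from Helt at chr8:46365084-46365714 moved from 0.182 to 0.708 CPM without LPS (median 0.259) to 20.2 to 22.6 CPM with it (median 22.2) (log2 fold change 5.80, SE 0.16, adjusted p 1.2e-26). Likewise, the site 409 kb from Jarid2, a partner of the Polycomb complex, had a median of 0.193 CPM without LPS (range 0.0878 to 0.274) and 8.72 CPM with LPS (range 7.58 to 10.2) at chr13:44320989-44321702 (log2 fold change 5.54, SE 0.20, adjusted p 1.1e-23). Its printed sequence holds AP-1 letters and the AhR-ARNT core, and it opened in cells without AhR and also in WT (log2 fold change 4.38). The other 3 were 30.4 kb from Basp1 (chr15:25444187-25444688, log2 fold change 5.59), 48.3 kb from Zhx2 (chr15:57645854-57646404, 5.59) and in an exon of Zfp558 nearest to the TSS of Mbd3l2 (chr9:18456346-18457179, 5.68), a gene with near-identical copies whose reads may be shared. Their highest unstimulated sample was 0.509 CPM and their lowest LPS sample 7.68 CPM. Among the 6 falls, the site 1481 kb from Flrt2 held 7.81 to 10.9 CPM (median 9.15) in the 6 unstimulated samples and 0.436 to 0.717 CPM (median 0.487) in the 6 LPS samples at chr12:94210581-94211110 (log2 fold change -4.12, SE 0.18, adjusted p 2.6e-21). An intron of Pitpnm2, a phosphatidylinositol transfer protein, had the most open of them, with a median of 21.997 CPM without LPS (range 18.6 to 27.5) and 1.56 CPM with LPS (range 1.47 to 2.06) at chr5:124226302-124227451 (log2 fold change -3.80, SE 0.12, adjusted p 2.7e-25). The rest lay 21.9 kb from Actl9 (-4.04), in introns of Rasgrf1 (-3.995) and Kcnip4 (-3.88), and 18.4 kb from Zfp101 (-3.84), with medians of 7.80 to 10.6 CPM without LPS and 0.499 to 0.630 CPM with it. These 4 and the Flrt2-nearest site hold repeat sequence, with 100% of the central 300 bases marked as repeat in the assembly against 11.3% of distal peaks with at least 50% so marked, and each shares an identical run of 33 to 44 bases with another of the 5 on one strand or the other. Reads of these 5 may be shared with one another and with further copies, so their values are uncertain and they are not 5 independent sites. The Pitpnm2 window has no base so marked, and of the 6 rises the Helt-nearest window has 64.0%.

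The NF-kB genes had no DAR at their promoters and many around them. In the list of NF-kB subunits, kinases and inhibitors, 0 of 19 TSS peaks were DARs in either direction (median log2 fold change 0.18, -0.11 over all genes; factors over TSS peaks alone gave 3 higher). Of the 326 peaks off the TSS that have one of these genes as the nearest, 49.1% were higher and 12.6% lower DARs, against 29.2% and 22.4% of all peaks off a TSS. An opened peak off the TSS was found at 17 of these 19 genes and at 7110 of the 11829 genes overall whose TSS peak was not a DAR (60.1%). The peak off the TSS with the largest rise is given for several loci below, and these loci were chosen after their values were seen. Nfkb1 encodes the p50 subunit. A peak in its intron at chr3:135623355-135624043 held 0.649 to 1.06 CPM (median 0.782) in the 6 unstimulated samples and 10.7 to 14.3 CPM (median 11.9) in the 6 LPS samples (log2 fold change 3.91, SE 0.15, adjusted p 1.5e-22). Tnfaip3, the ubiquitin-editing inhibitor A20, had one 11.1 kb away at chr10:19026493-19027194, with a median of 0.579 CPM without LPS (range 0.395 to 0.821) and 9.64 CPM with LPS (range 8.33 to 12.6) (log2 fold change 4.08, SE 0.17, adjusted p 7.2e-22). Rel, the c-Rel subunit, had one in its intron with a median of 1.49 CPM without LPS (range 1.32 to 1.61) and 7.07 CPM with LPS (range 5.56 to 7.69) (log2 fold change 2.21, SE 0.13, adjusted p 2.6e-17).

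Among 22 genes of LPS sensing and TLR4 signalling, 0 TSS peaks were higher and 4 lower DARs (median -0.05; with factors over TSS peaks alone 0.04 and 2 higher), against 3.87% higher and 10.1% lower of all genes, and of 403 peaks off the TSS 36.7% were higher and 12.9% lower DARs. The promoters that closed were those of Syk, a kinase of immune receptors, Tab1, a partner of the kinase TAK1, Pik3ap1, an adaptor to PI3 kinase, and Ticam2, the adaptor TRAM. Syk held 21.03 to 34.2 CPM (median 26.4) in the 6 unstimulated samples and 11.2 to 18.5 CPM (median 13.6) in the 6 LPS samples (log2 fold change -0.88, SE 0.09, adjusted p 4.1e-10). Tab1 and Pik3ap1 changed by -0.79 (SE 0.07) and -0.75 (SE 0.08), and Ticam2 by -0.74. The co-receptor gene Cd14 had a TSS log2 fold change of 0.54 and Tlr4 one of 0.08, neither a DAR. Among the feedback inhibitors, of 23 TSS peaks 0 were higher and 2 lower (8.70%, near the 10.1% of all genes), with a median of -0.01. With factors over TSS peaks alone the median was 0.08 and 2 were higher. Of 623 peaks off the TSS, 44.6% were higher and 13.2% lower DARs. Tsc22d3, the glucocorticoid-induced leucine zipper GILZ, fell at its TSS from 38.3 to 43.9 CPM without LPS (median 42.1) to 19.3 to 25.1 CPM with it (median 22.4) (log2 fold change -0.89, SE 0.06, adjusted p 2.6e-16), and Zc3h12c, an RNase of the regnase family, from a median of 22.02 to 14.1 CPM (log2 fold change -0.63, SE 0.07, adjusted p 9.0e-11), a call lost with factors over TSS peaks alone. Irak3, the inhibitory kinase IRAK-M, had its strongest opening 2.45 kb from the TSS in an intron of the neighbour Tmbim4, at chr10:120204583-120205039, with a median of 0.840 CPM without LPS (range 0.629 to 1.06) and 17.2 CPM with LPS (range 12.6 to 19.2) (log2 fold change 4.29, SE 0.18, adjusted p 1.4e-19), the site printed above. Il1rn, the interleukin-1 receptor antagonist, had one in its gene body with a median of 3.81 CPM without LPS (range 3.12 to 4.28) and 21.1 CPM with LPS (range 16.8 to 29.7) (log2 fold change 2.56, SE 0.12, adjusted p 5.6e-20).

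The promoters of inflammatory cytokines that changed all opened. Of 22 TSS peaks, 8 were higher and 0 lower DARs (median 0.45), and of 352 peaks off the TSS 51.4% were higher and 11.9% lower DARs. Il12a, the p35 subunit of interleukin-12, held 8.54 to 9.95 CPM (median 9.01) in the 6 unstimulated samples and 33.6 to 43.7 CPM (median 38.8) in the 6 LPS samples at chr3:68691016-68694150 (log2 fold change 2.07, SE 0.07, adjusted p 9.1e-25). Csf3 and Csf2, which encode the growth factors G-CSF and GM-CSF, changed by 2.05 (SE 0.13) and 1.91 (SE 0.18). The Csf2 site stayed low, at 2.76 to 4.16 CPM with LPS. Il1b, interleukin-1β, rose at the TSS from 3.73 to 5.15 CPM without LPS (median 4.24) to 8.84 to 13.8 CPM with it (median 10.8) (log2 fold change 1.36, SE 0.13, adjusted p 7.1e-12). A peak in its gene body 2.02 kb from the TSS, chr2:129363136-129369117, was the most open of the cytokine sites given here after LPS, with a median of 7.44 CPM without LPS (range 5.43 to 11.2) and 80.4 CPM with LPS (range 70.0 to 92.6) (log2 fold change 3.35, SE 0.14, adjusted p 9.6e-17). The remaining TSS rises were Il27 (1.198), Tnfsf9 (0.87), Ifnb1 (0.80) and Ebi3 (0.69), in log2 fold change. At the TSS of Tnf the samples overlapped, at 25.6 to 34.7 CPM (median 31.5) in the 6 unstimulated samples and 24.7 to 44.8 CPM (median 34.7) in the 6 LPS samples (log2 fold change 0.17, SE 0.10, adjusted p 0.14), and it was not a DAR. The TSS of Il6 moved from 11.5 to 13.5 CPM without LPS (median 11.99) to 14.96 to 22.2 CPM with it (median 17.2) without overlap and missed the fold threshold (log2 fold change 0.53, SE 0.08, adjusted p 3.6e-07). A peak 7.10 kb from that TSS at chr5:30020419-30024145 moved from 0.410 to 0.932 CPM without LPS (median 0.797) to 21.2 to 33.8 CPM with it (median 27.1) (log2 fold change 5.24, SE 0.15, adjusted p 3.5e-25). Of its central 300 bases, 85.0% are marked as repeat, so its reads may be shared with other copies. Il10, the main anti-inflammatory cytokine, had no tested TSS peak, and a peak 16.9 kb away at chr1:131002582-131002911 had a median of 0.222 CPM without LPS (range 0.0541 to 0.307) and 5.73 CPM with LPS (range 4.38 to 8.22) (log2 fold change 4.83, SE 0.23, adjusted p 3.8e-20).

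Chemokine promoters went both ways. Of 20 TSS peaks, 9 were higher and 5 lower DARs (median 0.11, range -1.36 to 5.97), and of 159 peaks off the TSS 38.4% were higher and 26.4% lower DARs. Beside Ccl5, the TSS peaks that rose were Cxcl16 (1.38), Cxcl3 (1.31), Cxcl9 (1.28), Ccl4 (1.16), Ccl22 (1.05), Cxcl1 (0.95), Cxcl2 (0.95) and Cxcl10 (0.87), in log2 fold change. They include attractants of neutrophils (Cxcl1, Cxcl2, Cxcl3) and of activated T cells (Cxcl9, Cxcl10). Cxcl3 held 11.4 to 14.5 CPM (median 13.1) in the 6 unstimulated samples and 27.04 to 38.4 CPM (median 31.5) in the 6 LPS samples (log2 fold change 1.31, SE 0.08, adjusted p 5.9e-16). Cxcl16, a transmembrane chemokine whose TSS peak also covers the start of Zmynd15, had a median of 6.54 CPM without LPS (range 5.95 to 7.37) and 16.9 CPM with LPS (range 15.4 to 18.98) (log2 fold change 1.38, SE 0.10, adjusted p 7.5e-15). Those that fell were Ccl6 (-1.36), Ccl12 (-0.93), Ccl24 (-0.64), Ccl2 (-0.61) and Cxcl14 (-0.59). Ccl6, a chemokine of resident macrophages, held 14.97 to 18.97 CPM (median 17.9) in the 6 unstimulated samples and 5.60 to 8.14 CPM (median 6.50) in the 6 LPS samples (log2 fold change -1.36, SE 0.09, adjusted p 2.4e-15). Ccl12, a ligand of CCR2, had a median of 31.3 CPM without LPS (range 24.7 to 33.05) and 16.02 CPM with LPS (range 12.4 to 17.9) (log2 fold change -0.93, SE 0.08, adjusted p 2.0e-13). The call at Ccl24, an eosinophil attractant, lay close to the fold threshold and was lost without LPS replicate 3 (-0.56) or unstimulated replicate 1 (-0.58).

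Interferon-stimulated genes held the largest share of opened peaks of the 26 lists, both at the TSS and off it. Of 39 TSS peaks, 19 were higher and 0 lower DARs (median 0.57), and of 249 peaks off the TSS 63.1% were higher and 6.83% lower DARs. Ifi44, an antiviral protein, held 1.99 to 4.83 CPM (median 2.80) in the 6 unstimulated samples and 14.2 to 18.4 CPM (median 15.4) in the 6 LPS samples at chr3:151748533-151750534 (log2 fold change 2.37, SE 0.15, adjusted p 4.3e-15). Oasl1, an oligoadenylate synthetase-like protein, had a median of 12.7 CPM without LPS (range 10.5 to 13.1) and 53.1 CPM with LPS (range 46.0 to 60.02) at chr5:114921675-114923642 (log2 fold change 2.12, SE 0.10, adjusted p 1.7e-18). Tgtp2 and Tgtp1, GTPases with near-identical copies, changed by 2.06 and 1.55, and the split of reads between them is uncertain. The same holds for Ifit3 (1.68) and Ifit3b (1.76). The other rises included Ifitm3 (1.74), Rsad2 (1.73), Oasl2 (1.65), Ifit1 (1.57), Isg20 (1.36) and Isg15 (1.16), in log2 fold change, among them Rsad2, the antiviral enzyme viperin, and Isg15, a ubiquitin-like modifier. Stat2 and Irf9, whose products act together upstream, were not DARs at the TSS, with Stat2 (-0.14) and Irf9 (0.23). In the list of IRF and STAT factors, 2 of 16 TSS peaks were higher and 1 was lower (median -0.09). These are 12.5% and 6.25%, against 3.87% and 10.1% of all genes. Irf7, which amplifies the interferon response, had a median of 23.6 CPM without LPS (range 20.9 to 27.2) and 38.5 CPM with LPS (range 37.3 to 45.5) (log2 fold change 0.75, SE 0.07, adjusted p 2.5e-12). Stat4 changed by 1.09 from a low level (median 1.42 CPM without LPS). Irf8, a lineage factor of monocytes and dendritic cells, was the lower one, with a median of 24.8 CPM without LPS (range 22.5 to 29.9) and 14.4 CPM with LPS (range 13.1 to 16.7) (log2 fold change -0.77, SE 0.08, adjusted p 5.8e-11).

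Genes of arginine metabolism and itaconate opened at promoters and at nearby sites. In this list, 4 of 11 TSS peaks were higher (36.4%, against 3.87% of all genes) and 0 lower (median 0.27), and of 185 peaks off the TSS 58.4% were higher and 8.11% lower DARs. The 4 were Acod1, Nos2, Arg2 and Ptgs2. The last is a cyclooxygenase gene that the list also holds, and it and its peaks are counted again among the eicosanoid genes. Acod1, the enzyme that makes itaconate, held 6.60 to 10.6 CPM (median 8.85) in the 6 unstimulated samples and 28.3 to 38.1 CPM (median 32.4) in the 6 LPS samples at its TSS (log2 fold change 1.88, SE 0.09, adjusted p 4.2e-19). An intronic peak of the gene at chr14:103052779-103053673 moved from 0.176 to 0.565 CPM without LPS (median 0.410) to 10.2 to 20.6 CPM with it (median 17.5) (log2 fold change 5.398, SE 0.22, adjusted p 8.2e-20). Its central 300 bases are tandem copies of a short unit, although none is marked as repeat in the assembly, so the placement of its reads is uncertain. Nos2, the inducible nitric oxide synthase, had a median of 8.05 CPM without LPS (range 7.02 to 8.74) and 18.3 CPM with LPS (range 16.8 to 21.05) at the TSS (log2 fold change 1.21, SE 0.09, adjusted p 4.0e-15) and, 5.80 kb into the gene at chr11:78931008-78934011, a median of 0.414 CPM without LPS (range 0.261 to 0.703) and 14.1 CPM with LPS (range 7.53 to 19.6) (log2 fold change 5.06, SE 0.31, adjusted p 2.1e-13). Arg2, a mitochondrial arginase, changed by 0.80 at the TSS and Arg1 by 0.19, the latter not a DAR. Of 22 genes of glucose uptake and glycolysis, 1 TSS peak was higher (4.55%, near the 3.87% of all genes) and 0 lower (median -0.15). Off the TSS, 37.8% were higher and 15.3% lower DARs. The 1 was Slc2a3, a glucose transporter, with a median of 3.22 CPM without LPS (range 3.07 to 4.37) and 5.52 CPM with LPS (range 4.77 to 5.94) (log2 fold change 0.67, SE 0.12, adjusted p 7.0e-06). Of 22 NRF2 and antioxidant genes, 0 were higher and 1 lower at the TSS, Gpx1, a glutathione peroxidase (-0.64, no longer a DAR without unstimulated replicate 2, -0.58), while 41.9% of their 236 peaks off the TSS were higher and 13.1% lower. Among the cholesterol genes, 1 of 25 TSS peaks was higher and 5 lower (4% and 20%, against 3.87% and 10.1% of all genes), with a median of -0.19, and off the TSS 23.9% were higher and 30.2% lower. Ch25h, which makes an oxysterol, rose from 6.11 to 8.34 CPM without LPS (median 7.45) to 12.1 to 20.6 CPM with it (median 17.7) (log2 fold change 1.22, SE 0.10, adjusted p 1.3e-13). The falls included Soat1 (-0.78), Srebf2 (-0.72) and Nr1h3 (-0.63), which store sterols, switch on their synthesis and sense them.

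Eicosanoid genes, which carry the lipid mediators of these cells, closed on the leukotriene side and opened at Ptgs2. Of 21 TSS peaks, 2 were higher and 7 lower (9.52% and 33.3%, against 3.87% and 10.1% of all genes), with a median of -0.37. Factors over TSS peaks alone left 4 of the 7. Of 512 peaks off the TSS, 28.3% were higher and 24.4% lower, near the 29.2% and 22.4% of all peaks off a TSS. Alox5, 5-lipoxygenase, held 26.8 to 29.3 CPM (median 27.7) in the 6 unstimulated samples and 10.9 to 13.5 CPM (median 12.2) in the 6 LPS samples at chr6:116458723-116461341 (log2 fold change -1.18, SE 0.07, adjusted p 1.8e-17). A peak in its intron, chr6:116451924-116452447, fell further, with a median of 10.5 CPM without LPS (range 9.60 to 12.4) and 2.13 CPM with LPS (range 1.91 to 2.55) (log2 fold change -2.33, SE 0.11, adjusted p 6.9e-20). Ltc4s, the synthase of cysteinyl leukotrienes, had a median of 70.0 CPM without LPS (range 62.9 to 86.6) and 30.9 CPM with LPS (range 29.03 to 35.4) (log2 fold change -1.197, SE 0.07, adjusted p 3.3e-17). Alox5ap, the activating protein FLAP, had a median of 24.6 CPM without LPS (range 22.6 to 26.7) and 13.7 CPM with LPS (range 10.9 to 15.5) (log2 fold change -0.87, SE 0.07, adjusted p 7.7e-13). The leukotriene hydrolase gene Lta4h (-0.63), the receptor genes Cysltr1 (-0.82) and Ptger3 (-0.59) and Ptgs1, cyclooxygenase 1, were the other falls. Ptgs1 held 21.1 to 25.2 CPM (median 21.9) in the 6 unstimulated samples and 13.7 to 16.8 CPM (median 14.6) in the 6 LPS samples (log2 fold change -0.61, SE 0.08, adjusted p 1.1e-08), and it was no DAR without LPS replicate 5 (-0.58), unstimulated replicate 1 (-0.58) or unstimulated replicate 5 (-0.58). Ptgs2, the inducible cyclooxygenase 2, rose at the TSS from 9.36 to 11.4 CPM without LPS (median 10.2) to 28.3 to 35.1 CPM with it (median 32.1) (log2 fold change 1.62, SE 0.07, adjusted p 1.0e-21), and a peak 8.19 kb into the gene at chr1:150108225-150109919 had a median of 0.917 CPM without LPS (range 0.747 to 1.51) and 16.7 CPM with LPS (range 9.51 to 23.3) (log2 fold change 4.12, SE 0.18, adjusted p 3.7e-19). Alox12, a lipoxygenase, changed by 0.71 and Hpgds, the hematopoietic prostaglandin D synthase, by -0.04, the latter not a DAR.

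Promoters of alveolar and resident macrophage genes that changed nearly all closed. In the alveolar list, 16 of 29 TSS peaks were lower and 1 higher (median -0.68), and of 457 peaks off the TSS 24.9% were higher and 33.04% lower DARs. The same order held in the list of M2-type and resident genes, where 11 of 18 were lower and 0 higher (median -0.77), with 25.8% higher and 31.004% lower off the TSS. Mrc1 and Chil3 are in both lists. Clec10a, a galactose-binding lectin, held 15.6 to 20.1 CPM (median 17.2) in the 6 unstimulated samples and 3.60 to 4.34 CPM (median 3.97) in the 6 LPS samples (log2 fold change -2.12, SE 0.09, adjusted p 7.8e-22). Mrc1, the mannose receptor, had a median of 15.5 CPM without LPS (range 13.3 to 16.3) and 5.003 CPM with LPS (range 4.47 to 5.62) at the TSS (log2 fold change -1.59, SE 0.10, adjusted p 8.4e-17) and a median of 12.6 CPM without LPS (range 10.5 to 13.3) and 2.27 CPM with LPS (range 2.14 to 2.51) at a site 4.44 kb away (log2 fold change -2.40, SE 0.12, adjusted p 4.8e-19). An exonic peak 49.6 kb into Mrc1 rose, from 4.003 to 5.29 CPM without LPS (median 4.92) to 16.3 to 24.5 CPM with it (median 20.8) (log2 fold change 2.11, SE 0.12, adjusted p 1.2e-16). Cidec, a lipid droplet protein, had a median of 15.98 CPM without LPS (range 13.3 to 17.7) and 4.12 CPM with LPS (range 3.09 to 4.74) (log2 fold change -1.97, SE 0.13, adjusted p 8.7e-16). Krt19, a keratin that marks alveolar macrophages, had the largest fall of the list (-3.26) at a low level, with a median of 3.34 CPM without LPS (range 2.19 to 4.92) and 0.380 CPM with LPS (range 0.122 to 0.538). The RNase genes Ear1 (-1.91) and Ear2 (-1.67) share near-identical sequence and their reads are uncertain. Further falls were Siglecf (-1.23), Ctsk (-1.12), Marco (-1.10), Csf2rb (-0.98), Cd36 (-0.74) and Fabp5 (-0.68), among them the sialic acid lectin Siglec-F, the scavenger receptors MARCO and CD36 and the common beta chain of the GM-CSF receptor, and in the resident list Retnla (-1.27), Mgl2 (-1.25), C1qa (-1.23), C1qc (-0.98), C1qb (-0.94), Axl (-0.95) and Mertk (-0.81). The exception was Il1f9, a cytokine of the interleukin-1 family, with a median of 10.9 CPM without LPS (range 8.22 to 11.9) and 18.6 CPM with LPS (range 15.4 to 22.3) (log2 fold change 0.84, SE 0.11, adjusted p 1.2e-07). Pparg, the nuclear receptor of the alveolar programme, moved from 21.8 to 27.03 CPM without LPS (median 24.9) to 13.97 to 17.6 CPM with it (median 16.9) without overlap and short of the fold threshold (log2 fold change -0.57, SE 0.09, adjusted p 1.6e-06), and it passed with RLE size factors (-0.61) or without any of LPS replicates 4, 5 and 6 or unstimulated replicates 2 and 3 (-0.59 to -0.61).

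Macrophage lineage factors had lower and no higher DARs at the TSS. Of 22 with a TSS peak, 7 were lower (31.8%, against 10.1% of all genes) and 0 higher (median -0.33). Off the TSS 34.4% of 1233 peaks were higher and 19.95% lower, against 29.2% and 22.4% of all peaks off a TSS. Tfec, a macrophage member of the MITF family, held 18.6 to 23.7 CPM (median 19.8) in the 6 unstimulated samples and 5.24 to 10.3 CPM (median 8.81) in the 6 LPS samples (log2 fold change -1.30, SE 0.11, adjusted p 8.7e-12). Bhlhe41, a transcriptional repressor found in alveolar macrophages, had a median of 50.7 CPM without LPS (range 43.5 to 58.5) and 25.8 CPM with LPS (range 22.3 to 29.1) (log2 fold change -0.95, SE 0.08, adjusted p 6.4e-13). The C/EBP genes fell at the TSS by 0.88 (Cebpd), 0.81 (Cebpe) and 0.71 (Cebpb) on the log2 scale, and Cebpa, at -0.53, missed the threshold. A site 19.4 kb from Cebpa at chr7:35097906-35099860 had a median of 20.3 CPM without LPS (range 17.4 to 22.3) and 4.11 CPM with LPS (range 3.61 to 4.66) (log2 fold change -2.29, SE 0.08, adjusted p 1.6e-23). The TSS of Klf4 was not a DAR (0.01), and sites assigned to it moved in both directions. The printed site 285 kb away had a median of 11.3 CPM without LPS (range 11.1 to 12.8) and 2.39 CPM with LPS (range 1.78 to 2.84) (log2 fold change -2.28, SE 0.11, adjusted p 2.9e-20). A site 532 kb away opened, with a median of 1.16 CPM without LPS (range 0.684 to 1.22) and 9.46 CPM with LPS (range 7.89 to 14.3) at chr4:56064020-56065026 (log2 fold change 3.29, SE 0.16, adjusted p 8.3e-20). Of 19 genes for TGF-β ligands, receptors and SMADs, 3 were lower and 0 higher at the TSS (median -0.28), a lower share of 15.8% near the 10.1% of all genes. Of 546 peaks off the TSS 31.5% were higher and 24.2% lower, near the 29.2% and 22.4% of all such peaks. Tgfbr2, the ligand-binding receptor, had a median of 45.9 CPM without LPS (range 40.7 to 48.0) and 25.6 CPM with LPS (range 24.4 to 28.3) (log2 fold change -0.80, SE 0.06, adjusted p 6.9e-15), the co-receptor gene Tgfbr3 changed by -0.94 and Smad1, a signal transducer of the BMP branch, by -0.60, a call at the threshold that was lost without LPS replicate 2 (-0.58).

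Antigen presentation and receptor genes were divided. In the MHC class II list, 2 of 12 TSS peaks were higher and 3 lower (median -0.17). These are 16.7% and 25%, against 3.87% and 10.1% of all genes. Off the TSS, 27.9% of 68 peaks were higher and 20.6% lower, near the 29.2% and 22.4% of all peaks off a TSS. Ciita, the master activator of class II genes, held 26.2 to 30.1 CPM (median 27.98) in the 6 unstimulated samples and 13.4 to 17.2 CPM (median 14.9) in the 6 LPS samples (log2 fold change -0.92, SE 0.07, adjusted p 5.9e-14). H2-DMb2, part of the peptide exchange factor, changed by -0.93 and H2-Aa, a class II alpha chain, by -0.67, the latter call lost with factors over TSS peaks alone (-0.58). H2-Oa, which inhibits that exchange, rose by 0.70, and H2-Eb2, at a level near 1 CPM, by 0.61, a call lost with RLE size factors (0.57) and without LPS replicate 6 (0.56), unstimulated replicate 2 (0.58) or unstimulated replicate 5 (0.50). In the class I list, 2 of 19 were higher (10.5%, and 4 with factors over TSS peaks alone) and 0 lower. The 2 were Tap2, a peptide transporter (0.64), and H2-Q6 (0.78), whose reads may be shared with its neighbours. Of 54 peaks off the TSS of this list, 38.9% were higher and 11.1% lower. Of 11 costimulatory and checkpoint ligands, 3 were higher and 2 lower (27.3% and 18.2%, median 0.38), with 49.1% of 161 peaks off the TSS higher and 11.2% lower. Cd40, the receptor of T-cell help, had a median of 14.3 CPM without LPS (range 12.7 to 16.9) and 33.4 CPM with LPS (range 30.2 to 37.1) (log2 fold change 1.19, SE 0.08, adjusted p 4.1e-16), Tnfsf9 and the checkpoint receptor gene Havcr2 changed by 0.87 and 0.77, and the T-cell ligand genes Vsir and Icosl by -1.04 and -0.59. The Icosl call was lost without LPS replicate 3, 5 or 6 or unstimulated replicate 2, 5 or 6 (-0.58 to -0.54). Pattern, scavenger and Fc receptors had 2 higher and 9 lower TSS peaks of 29 (median -0.27; 5 higher with factors over TSS peaks alone). The fungal and mycobacterial lectin gene Clec4e rose from 21.2 to 24.03 CPM without LPS (median 23.1) to 39.5 to 44.9 CPM with it (median 42.1) (log2 fold change 0.88, SE 0.06, adjusted p 3.0e-15), and Fpr2, a formyl peptide receptor, changed by 0.75. Tyrobp, the signalling adaptor of several such receptors, had a median of 31.4 CPM without LPS (range 28.1 to 33.1) and 15.3 CPM with LPS (range 11.4 to 18.1) (log2 fold change -1.06, SE 0.09, adjusted p 1.4e-11), and the integrin gene Itgam and the lysosomal Cd68 changed by -0.79 and -0.68. Of 16 inflammasome genes, 2 were higher and 3 lower (12.5% and 18.75%). The higher ones were Il1b and the pyrin gene Mefv (0.93). Lower were the ATP-gated channel gene P2rx7 (-0.82) and the related sensors Nlrp1a (-0.88) and Nlrp1b (-0.78), which share sequence. Of 200 peaks off the TSS of this list, 36.5% were higher and 20.5% lower.

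Of 21 AP-1, ATF and MAF factors, 2 TSS peaks were higher and 1 lower (median -0.13), or 9.52% and 4.76% against 3.87% and 10.1% of all genes. Fosl1, encoding FRA-1, had a median of 5.71 CPM without LPS (range 5.30 to 6.82) and 11.6 CPM with LPS (range 9.61 to 14.9) (log2 fold change 1.03, SE 0.11, adjusted p 1.6e-10), and Batf2, an interferon-induced factor, changed by 0.96. Not DARs were Fos (-0.22), Jun (-0.12), Junb (0.31), Fosl2 (-0.11), Atf3 (-0.48) and Batf (0.00). For Fosl2, which encodes FRA-2, a peak 79.5 kb away in an intron of Babam2 at chr5:32055576-32056336 moved from 0.162 to 0.551 CPM without LPS (median 0.262) to 5.55 to 7.81 CPM with it (median 6.89) (log2 fold change 4.51, SE 0.18, adjusted p 6.8e-22). Among 16 matrix proteases and plasminogen activators, 5 were higher and 1 lower (31.25% and 6.25%, against 3.87% and 10.1% of all genes). They were Serpinb2, the metalloprotease inhibitor gene Timp1 (1.13), the plasminogen activator gene Plat (0.99), Adam8 (0.86) and Mmp25 (0.69), and, lower, Timp2 (-0.64, and -0.58 and no DAR without unstimulated replicate 2). Of 32 cell-cycle genes, 1 was higher and 3 lower (median -0.20), or 3.1% and 9.4%, near the 3.87% and 10.1% of all genes. Myc, the growth regulator, held 30.8 to 35.1 CPM (median 33.4) in the 6 unstimulated samples and 9.24 to 12.1 CPM (median 9.88) in the 6 LPS samples (log2 fold change -1.71, SE 0.08, adjusted p 1.1e-20). The replication helicase gene Mcm7 changed by -0.69, Ccnd1 by -0.60 and Ccnd2 by 0.65, the latter both being D-type cyclins. The Ccnd1 call was lost without LPS replicate 3 (-0.57), LPS replicate 4 (-0.55) or unstimulated replicate 5 (-0.58). The 62 cytosolic ribosomal protein genes had 0 DARs at the TSS and a median of -0.20, which lies below the median of all genes. The median of each of the 26 lists moved by less than 0.1 under each other fit that was run.

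**Figure D4:**
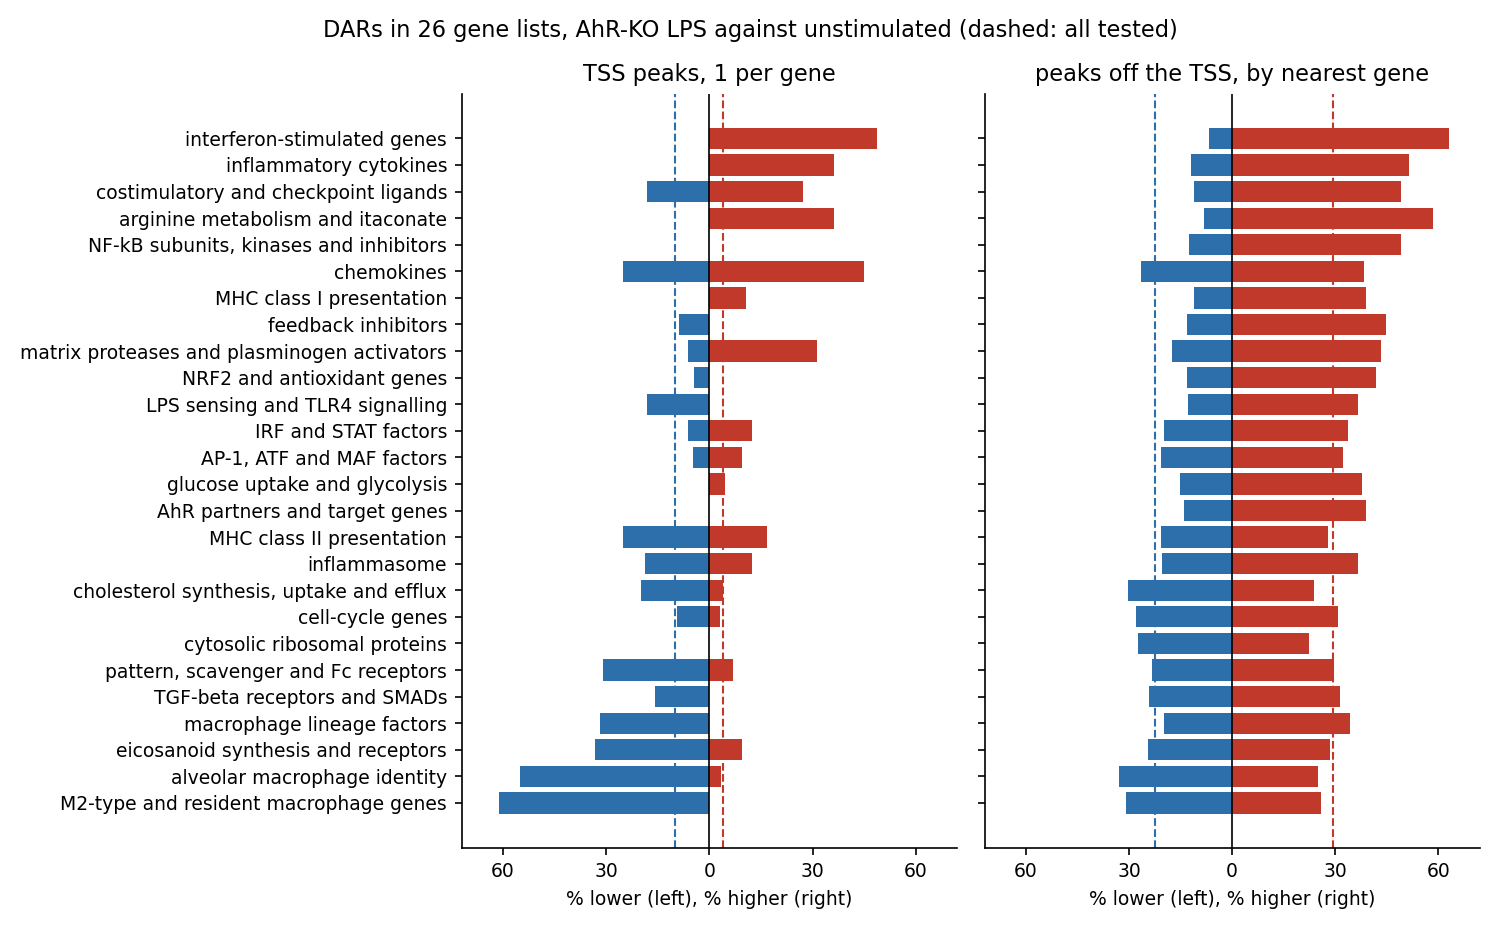
Share of DARs in 26 gene lists for TSS peaks, 1 per gene (left), and for peaks off the TSS by nearest gene (right), in %, with higher DARs to the right in red and lower DARs to the left in blue. The dashed lines mark all tested genes or peaks (3.87% and 10.1%, 29.2% and 22.4%). Interferon-stimulated genes reach 48.7% higher at the TSS and M2-type and resident genes 61.1% lower.

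The Ahr locus itself opened inside the gene. At the TSS (chr12:35534070-35535364) the samples overlapped, at 11.5 to 15.1 CPM (median 13.1) in the 6 unstimulated samples and 11.9 to 16.8 CPM (median 15.1) in the 6 LPS samples (log2 fold change 0.16, SE 0.08, adjusted p 0.068), and it was not a DAR. Of the 13 tested peaks inside Ahr, 9 opened and 0 closed with LPS in AhR-KO (median log2 fold change 0.93), against 27.3% and 21.5% of all tested peaks. The samples did not overlap at 7 of the 9, as at 80.8% of all higher DARs. The most open of them, in an intron at chr12:35520141-35521857, had a median of 2.41 CPM without LPS (range 1.96 to 2.88) and 15.5 CPM with LPS (range 10.4 to 19.4) (log2 fold change 2.65, SE 0.13, adjusted p 2.2e-19). In WT the same 13 peaks had 1 higher and 3 lower DARs (median -0.24), against 25.4% higher and 21.6% lower of all tested peaks. The difference between the responses was itself a DAR at 9 of them, each more positive in AhR-KO, against 10.4% of all tested peaks in either direction. These peaks lie in the gene that the AhR-KO line alters, so an effect of the allele and of the missing protein cannot be told apart. Among 80 peaks assigned to Ahr, 35 were higher and 11 lower, against 27.3% and 21.5% of all tested peaks. Some held almost no counts in AhR-KO with or without LPS. At chr12:35479981-35481193 AhR-KO samples held 0 to 0.244 CPM and WT samples 3.72 to 7.63 CPM. The largest rise was 74.9 kb from the Ahr TSS at chr12:35459764-35460128, with a median of 0.281 CPM without LPS (range 0.197 to 0.565) and 10.5 CPM with LPS (range 8.75 to 11.6) (log2 fold change 4.95, SE 0.16, adjusted p 4.6e-25, and 4.26 in WT). Its partners and known targets had 0 DARs among 11 genes at the TSS (median -0.17), while of 256 peaks off the TSS 39.1% were higher and 14.1% lower DARs. Ahrr, the AhR repressor and a classical target, moved from 2.60 to 4.13 CPM without LPS (median 3.23) to 2.04 to 2.51 CPM with it (median 2.38) (log2 fold change -0.50, SE 0.12, adjusted p 3.1e-04), short of the fold threshold, and its introns held a peak that closed and one that opened. The former, at chr13:74259553-74261092, had a median of 30.7 CPM without LPS (range 29.3 to 32.9) and 15.9 CPM with LPS (range 13.9 to 18.98) (log2 fold change -0.93, SE 0.07, adjusted p 1.3e-13). The latter, at chr13:74272453-74274784, had a median of 4.35 CPM without LPS (range 3.46 to 5.43) and 8.28 CPM with LPS (range 5.54 to 9.73) (log2 fold change 0.82, SE 0.13, adjusted p 2.2e-06), and rose more in WT (1.55, difference -0.74, a DAR of the interaction). Cyp1a1 and Cyp1b1, the cytochrome genes induced by AhR ligands, had no tested TSS peak.

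Some loci opened or closed as a block. Among 5593 genes with at least 10 assigned peaks, the median share of higher DARs was 26.7% and of lower DARs 20%. All 25 peaks of Slc13a1, a sulfate transporter, were higher (median log2 fold change 1.93), as were all 17 of Car13, a carbonic anhydrase (2.07), all 13 of Tnfrsf9, the costimulatory receptor of T cells (2.27), all 13 of Cntnap5c (2.95) and all 10 of Dlgap2 (1.74). Henmt1 and Zfp804a tied with Dlgap2 at 10 of 10. Lower DARs were most frequent at Gm10234 (12 of 13), Slc39a12, a zinc transporter (11 of 12), Stk32c (10 of 11), Ski, a co-repressor of SMADs (13 of 15), and Bhlhe41 (10 of 12). The longest run of neighbouring peaks that all opened held 33 peaks over 444 kb at chr6:24059114-24502739, around Slc13a1, and its summed level went from 53.3 to 83.8 CPM up to 186 to 226 CPM. A run of 29 lay at chr6:57580675-57659549 by Herc6, an interferon-induced ligase, with 48.7 to 57.1 CPM without LPS and 111 to 138 CPM with it. Another of 27 lay around Dlgap2. Of the runs that closed, 19 peaks lay around Cachd1 at chr4:100446963-100980594, 16 by Suclg2 at chr6:95297834-95553180 and 14 within 48.5 kb of Tspan14 at chr14:40919242-40967788. Tspan14 is a tetraspanin partner of the ADAM proteases. Its run was the most open before LPS, at 343 to 370.3 CPM, and fell to 106 to 118 CPM.

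The WT samples show which parts of this response differed without AhR. In WT, 44219 peaks (25.4%) were higher and 37692 (21.6%) lower DARs. Of the AhR-KO higher DARs, 36438 (76.6%) were also higher in WT and 206 lower, and of the lower DARs 27264 (72.7%) were also lower and 129 higher. The difference between the responses was tested as the interaction of genotype and LPS, AhR-KO minus WT, and 18132 peaks (10.4%) were DARs of it. Among peaks that rose in both genotypes, 2855 rose more in AhR-KO and 955 less, and among those that fell in both, 1679 fell more and 535 less. At the TSS, counted once per gene, 129 of 13747 genes (0.938%) were more positive in AhR-KO and 305 (2.22%) more negative. The ribosomal protein genes, with 0 DARs at the TSS, had a median of -0.20 in AhR-KO and -0.02 in WT. The part of the scaling in this TSS split was not tested. Off the TSS the shares were 6.22% and 4.76%.

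Interferon-stimulated genes stood on one side of that difference. Of their 39 TSS peaks, 10 were more positive in AhR-KO and 0 more negative, and off the TSS 30.9% of 249 peaks were more positive and 0.402% more negative. In WT, 11 of the 39 rose (median 0.29, against 0.57 in AhR-KO). Ifi44 changed by 2.37 in AhR-KO and 1.21 in WT (interaction 1.16, SE 0.21, adjusted p 4.0e-04). Oasl1 changed by 2.12 and 1.28 (interaction 0.84, adjusted p 8.6e-05). An Oasl2 intron peak at chr5:114907828-114908110 was listed at 0 in most unstimulated AhR-KO samples and at 0.587 to 1.42 CPM with LPS, and its fitted interaction, which rests on nearly no counts without LPS, was 3.88 (adjusted p 6.9e-04). MHC class II genes lay on the other side, since of 68 peaks off the TSS 0 were more positive in AhR-KO and 13 (19.1%) more negative, and H2-Aa fell in AhR-KO (-0.67) with -0.08 in WT (interaction -0.59, adjusted p 0.0055).

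Single inflammatory genes differed in both directions. Ptgs2 rose more in AhR-KO than in WT at the TSS (1.62 against 0.96, interaction 0.66, SE 0.09, adjusted p 7.9e-06) and at its gene-body peak (4.12 against 1.78, interaction 2.35, SE 0.29, adjusted p 1.5e-06). Nos2 did so at the gene-body peak (5.06 against 1.98, interaction 3.07, SE 0.55, adjusted p 5.5e-04), and at its TSS the interaction was 0.28, not a DAR. Ccl5 and Serpinb2 rose more as well (interaction 1.64, SE 0.52, adjusted p 0.029, and interaction 0.94, SE 0.19, adjusted p 9.1e-04). For Il6 the sites disagreed, with a smaller rise at the TSS (0.53 against 1.17, interaction -0.64, SE 0.12, adjusted p 2.4e-04) and a larger one at the site 7.10 kb away (5.24 against 3.96, interaction 1.28, SE 0.27, adjusted p 0.0014). Il1b rose less in AhR-KO at the TSS (interaction -0.60, SE 0.19, adjusted p 0.026) and in the gene body (interaction -0.78, SE 0.21, adjusted p 0.014). Slc2a3 and Ch25h rose in AhR-KO while their WT changes, -0.41 and 0.32, were no DARs (interactions 1.08 and 0.90, adjusted p 2.1e-05 and 2.6e-05). The change was more negative in AhR-KO than in WT at the TSS of Gsc (-1.13), Bank1 (-0.89), Myc (-0.69), Irf8 (-0.62) and Syk (-0.62), all DARs of the interaction. In the Tspan14 run, all 14 peaks were interaction DARs, with a median log2 fold change of -1.98 in AhR-KO and -0.75 in WT. For the leukotriene genes Alox5, Ltc4s and Alox5ap the TSS interactions were -0.22, -0.50 and -0.11, not DARs, which does not show that the genotypes responded alike. The Alox5 intron peak fell more in AhR-KO than in WT (-2.33 against -1.40, interaction -0.93, SE 0.16, adjusted p 8.7e-05), a DAR of the interaction. The largest interactions by rule lay at weakly open sites nearest to Syt7 (4.06), Fstl3 (3.77), Syn3 (-3.37), Kcnj6 (-3.03) and Cops8 (-3.02), where no AhR-KO sample was above 0.865 CPM. In WT, the medians at Syt7 and Fstl3 went from 1.53 to 0.329 and from 1.19 to 0.296 CPM, and those at Syn3, Kcnj6 and Cops8 from 0.429 to 1.90, 0.739 to 2.53 and 0.310 to 1.19 CPM, opposite in direction to AhR-KO at each of the 5.

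**Figure D5:**
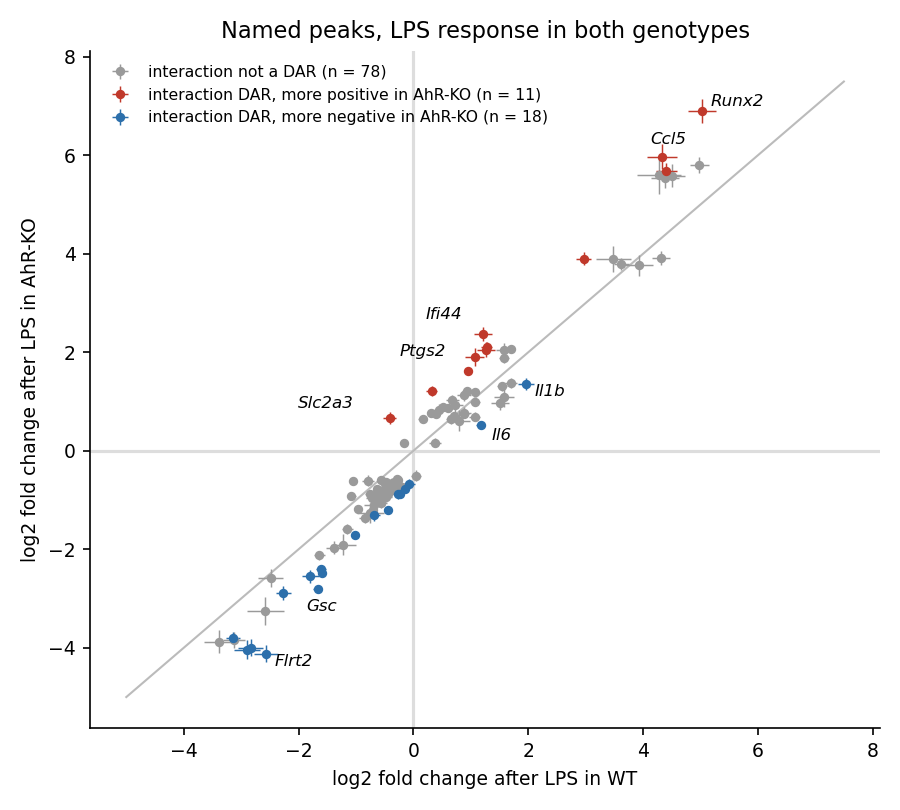
Log2 fold change after LPS in WT (x axis) and in AhR-KO (y axis) at 107 named peaks, with SE bars and the line of equal change. Grey points (78) are not DARs of the interaction, red points (11) are more positive and blue points (18) more negative in AhR-KO, and Ccl5, Ifi44 and Ptgs2 lie above the line.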

How the data were processed

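Chromatin accessibility was measured by ATAC-seq in 24 BMDM samples, 6 in each of 4 groups. The counts were deposited as whole fragments per consensus peak, and per the file headers and the study's methods the authors counted read pairs with featureCounts after calling broad peaks with MACS2 on mm10, per sample and without pooling replicates. The authors' broad peak files give each peak's −log10 q-value, used here only for the peaks' positions. The submitters' processing notes also name bcl2fastq 2.20.0. No count column was left unused. Of 184158 consensus peaks, 174193 passed edgeR's filter on low counts (filterByExpr) and were tested. Counts were normalized by TMM and tested in edgeR 4.0.16 (R 4.3.3) with the robust quasi-likelihood test and Benjamini-Hochberg adjustment, in 1 fit of all 24 samples so that 4 groups share the spread. The fit, tested on simulated data, gives the SE as the absolute log2 fold change divided by the root of its F statistic. A fragment was assigned to every peak it overlapped enough, so neighbouring peaks can share fragments. Peaks were assigned to the nearest TSS of 21924 protein-coding genes of the GRCm38 annotation, 1 TSS peak per gene being the one of highest mean CPM. Reference sequence is GRCm38.p6 and promoters are RefSeq's. Depth was 18.9 to 28.5 M counts per AhR-KO sample, and the number of samples limits the precision.

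The part studied, its gene lists and its tests were chosen with earlier results of these data known. By rule, the genes named are the 6 TSS and 6 distal DARs of largest change per direction with non-overlapping groups and a mean of at least 5 CPM in the higher group, up to 3 TSS DARs per direction in each of 26 lists plus Ahr, Ahrr, Nos2, Il6, Il1b, Tnf, Pparg, Ptgs1, Ptgs2, Alox5 and Acod1, the 5 genes of at least 10 peaks with the highest share of DARs per direction (ties broken by the number of peaks), the 3 longest runs of DARs per direction, and the 3 largest interactions per direction outside 20.0 Mb around Ahr. All other genes and the peaks off the TSS at single loci were chosen after their values were seen. Of the list symbols, 5 had no match in the annotation (Clec7a, Cxcl11, Ifi30, Irg1, Mx2). Sample totals and shares were compared by exact permutation tests. Alternatives were other scalings, DESeq2 1.42.0, no filter, the 12 AhR-KO samples alone, a replicate block, thinning, other thresholds of fold and distance, and leaving out each AhR-KO sample. No pair of samples within a group agreed within sampling noise (lowest chi-square 1.51 per peak over 30 pairs), so each was counted separately. Some genes of the lists are counted but not reported here by name.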

Additional observations from a re-analysis of the deposited data

Results flagged for a closer look

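In 11 of 232 groups of 6 AhR-KO samples at the named peaks (4.74%), 1 sample stood apart from the other 5 by Dixon's criterion at the 95% level, which chance gives in about 1 of 20 groups. Without LPS the sample that stood apart was replicate 4 at the TSS of Cd300lg (3.04 CPM, the lowest) and of Tgtp2 (0.652 CPM, the lowest), replicate 2 at Stat4 (1.79 CPM, the highest), replicate 6 at Slc2a3 (4.37 CPM, the highest) and replicate 1 at the Syt7-nearest site (0.315 CPM, the highest). With LPS it was replicate 1 at Marco (1.97 CPM, the lowest), replicate 3 at Axl (4.02 CPM, the lowest), Havcr2 (44.6 CPM, the highest) and Myc (12.1 CPM, the highest), replicate 5 at H2-Oa (13.4 CPM, the highest) and replicate 4 at Nlrp1b (14.9 CPM, the lowest). None of these calls was lost without the sample that stood apart.

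At 35 of 113 named peaks the response to LPS differed between AhR-KO and WT by the interaction test, given here as AhR-KO minus WT on the log2 scale (edgeR adjusted p of at most 0.05 and a difference of at least 1.5-fold), and 34 of these are given. More positive in AhR-KO were the TSS peaks of Ccl5 (1.64), Slc2a3 (1.08), Ifi44 (1.16), Serpinb2 (0.94), Ch25h (0.90), Csf2 (0.84), Oasl1 (0.84), Tgtp2 (0.79) and Ptgs2 (0.66). The distal sites nearest to Runx2 (1.87) and Mbd3l2 (1.27) also were, as were the low sites nearest to Syt7 (4.06), Oasl2 (3.88) and Fstl3 (3.77). More negative were the TSS peaks of Gsc (-1.13), Bank1 (-0.89), Pald1 (-0.80), Slco2b1 (-0.75), Myc (-0.69), Tsc22d3 (-0.65), Il6 (-0.64), Ms4a3 (-0.62), Irf8 (-0.62), Syk (-0.62), Tfec (-0.62), Il1b (-0.60) and H2-Aa (-0.59). The distal sites nearest to Flrt2 (-1.56), Rasgrf1 (-1.16), Actl9 (-1.14) and Pitpnm2 (-0.66) and the low sites nearest to Syn3 (-3.37), Kcnj6 (-3.03) and Cops8 (-3.02) were so too, those nearest to Flrt2, Rasgrf1 and Actl9 being the repeat copies whose reads may be shared. The 6 low sites were named for the size of this difference, so their values describe that choice.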

How the results depend on the processing

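No called value changed direction under any alternative that was run, but 4 of 26 medians over the TSS peaks of gene lists, all within 0.1 of 0, turned from negative to positive with factors over TSS peaks alone (LPS sensing and TLR4 signalling, feedback inhibitors, NRF2 and antioxidant genes, matrix proteases), the feedback inhibitors also without any 1 of 5 samples. A minimum fold change of 2 in place of 1.5 gave 52749 DARs in AhR-KO (19578 lower), 300 higher and 421 lower TSS peaks, 16845 lower distal peaks, 50295 DARs in WT and 8862 of the interaction, and no minimum gave 2627 higher and 5668 lower TSS peaks. TSS peaks defined within 1 kb of a TSS gave 1049 higher, and distal peaks beyond 50 kb 18287 higher and 12733 lower, sets that differ in size by construction. Leaving out 1 AhR-KO sample at a time gave 84454 to 85744 DARs (46886 to 48223 higher, 37200 to 37681 lower), 611 to 639 higher and 1415 to 1597 lower TSS peaks, 42026 to 43280 higher and 31296 to 31829 lower distal peaks, 82513 to 82877 in WT, 16376 to 18738 of the interaction, and a difference in TSS share of -2.65 to -2.12 percentage points. Deviations of samples with the same replicate number were weakly and positively correlated (0.00375 to 0.171, 2 of 6 over 0.1, 3 of 6 highest with their own number). Whether the numbers mark the same animal or batch across groups is not given, and the samples were not treated as pairs. The replicate block in the fit of the 12 AhR-KO samples gave 81072 DARs. Other scalings, DESeq2, no filter, thinning and the 12 samples alone kept each count of DARs over all, TSS and distal peaks within 1.5 times its reported value, although 43 of 1040 counts within gene lists moved by more, while with RLE size factors higher DARs made up 25.3% of the TSS calls. Of 2252 values of 113 named peaks under alternatives, 55 at 13 peaks lost the call and 11 at 2 peaks gained it, and the cause was not tested. At the Kcnj6-nearest site the AhR-KO call was lost without any 1 of the 12 samples (-1.12 to -1.38), and at the Syn3-nearest site without LPS replicate 2, 4 or 6 or unstimulated replicate 1 or 2 (-0.92 to -1.07).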
